A study of Mus musculus with 8 samples.

Results

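Caveolae genes were followed in a murine oviductal epithelial (MOE) cell line. The 7 genes, among 23337 measured, were chosen by name as the parts from which a caveola is built: the caveolins Cav1 and Cav2, the cavins Ptrf (now Cavin1), Sdpr (now Cavin2) and Prkcdbp (now Cavin3), and the membrane-shaping proteins Ehd2 and Pacsin2. The rule is a list of names with no threshold on a value, and all 7 passed the filter on low values, which asked for 10 or more normalized counts in 4 or more of the libraries. The oviduct is the mouse counterpart of the human fallopian tube, and the line is of the FVB strain. After trypsin they were placed on 2D collagen (4 libraries) or on 3D collagen gels (4 libraries), and both groups spent 6 h in MOE medium that lacked EGF. All libraries come from 1 cell line, and no treatment other than the substrate is named.

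Caveolae are small flask-shaped pits of the plasma membrane. Caveolins sit in the inner leaflet and bind cholesterol, cavins assemble on top of them as a coat, Pacsin2 helps to bend the membrane, and Ehd2 forms a ring of ATPase at the neck that holds the pit at the surface. Caveolae flatten when the membrane is stretched and are therefore studied as a reserve of membrane in cells that spread or are pulled. They are especially common in endothelial cells, adipocytes and muscle cells.

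No shared change of the caveolae genes between the substrates was shown. By exact permutation tests their ratios to Cav1 had adjusted p-values of 0.171 to 0.286. After adjustment those tests could not pass for 1 fully separated ratio alone, so they cannot decide whether single genes differ from Cav1. None of the 7 passed limma's test at an adjusted p of 0.05, where 2.33% of the 11820 tested genes were called higher and 3.39% lower on 3D collagen (275 and 401 genes, or 498 and 318 with library size as the only scaling). An unadjusted p under 0.05 was reached by 2 of the 7, against 24.2% of all tested genes. edgeR called none of the 7 (2.72% of all genes higher and 3.18% lower). DESeq2 called 1, Ehd2, as lower (5.99% higher and 7.37% lower). With a block for replicate number, limma and edgeR also called Ehd2 lower, where they called 742 and 605 of all genes lower. Ehd2 came closest: its mean on 3D collagen was 0.581 times that on 2D collagen, all 4 libraries on 3D collagen were below all 4 on 2D collagen (groups without overlap were found for 18.4% of all tested genes), and its adjusted p was 0.0584 by limma. The means of Cav1 were lower and those of Sdpr higher on 3D collagen by smaller or less even amounts, and Ptrf, the most abundant member per length, had overlapping groups.

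Values are normalized counts, that is, reads corrected for depth by a size factor for each library. The libraries held 15692699 to 25862036 reads, with 14064 to 14598 genes detected. The replicates are separate libraries that no label ties to separate cultures, and the error behind every p-value is the spread among such libraries, possibly a technical one. The oviductal epithelial markers Pax8, Krt7, Krt8 and Krt18 were abundant (Pax8 at 441 to 566 CPM, reads scaled to depth, in all 8 libraries), whereas Epcam (0 to 1.26 CPM), Ovgp1 (0.0505 to 1.37 CPM) and Cdh1 (0.956 to 5.23 CPM) were at or near 0. Krt8 (1427 to 1884 CPM on 2D and 1006 to 1223 CPM on 3D collagen) and Krt18 (3098 to 3438 and 2401 to 2924 CPM) were lower in every library on 3D collagen, as Ehd2 was. The groups overlapped for Krt7 (4047 to 5210 and 3375 to 4408 CPM), Krt19 (684 to 1391 and 728 to 1782 CPM) and Pax8. The part of these markers in the Ehd2 result was not tested. One library on 2D collagen, replicate 2, was the lowest of its group for Cav2 and Sdpr and stood far above the others for the related genes Ehd1 and Flot2, and these results are also given without it. Related genes beyond these were extreme in it too, of which Yes1 and Src are named after their values were seen. Yes1 was lowest there (9.56 normalized counts against 149 to 211 in the rest of its group) and Src highest (10945 against 6763 to 7608).

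Of the cell types rich in caveolae, endothelial and adipocyte markers were nearly absent. Among the 5 endothelial markers 4 stayed under 1 CPM in every library, and the summed level (14.2 to 29.3 CPM on 2D and 17.2 to 38.9 CPM on 3D collagen) came almost wholly from Kdr. The 5 adipocyte markers summed to 0.425 to 1.11 CPM on 2D and 0.471 to 1.54 CPM on 3D collagen, with Plin1 at 0 in all libraries. The smooth muscle list summed to 432 to 2153 CPM on 2D and 242 to 890 CPM on 3D collagen, nearly all of it Acta2, a gene that non-muscle cells also use, and 2 of its 5 genes (Des and Rgs5) stayed under 1 CPM throughout. Fibroblast markers summed to 2.49 to 19.2 CPM on 2D and 3.86 to 16.6 CPM on 3D collagen, leukocyte markers to 7.14 to 18.5 and 18.7 to 30.5 CPM (nearly all Cd68, with the other 4 under 1 CPM), and ciliated cell markers to 63.3 to 89.9 and 17.9 to 83.3 CPM. The part of these levels in the caveolae results was not tested. In such bulk samples fewer cells of a type and less RNA per cell cannot be told apart.

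Promoter windows from RefSeq (GRCm38.p6, 250 bases before to 50 after a start site) were found for 6 of the 7 genes. Windows of 3 genes are shown because the results turn on them: Ehd2, whose groups separate, Cav1, to which the other genes are set in ratio, and Ptrf, the most abundant of the family. The Ehd2 window is chr7:15967486-15967785 on the minus strand, the Cav1 window is chr6:17306085-17306384 on the plus strand, and the Ptrf window is chr11:100970568-100970867 on the minus strand. Each is printed 5′ to 3′, and capitals mark a match on either strand to the GC box GGGCGG or to the TEAD element GGAATG.
Ehd2: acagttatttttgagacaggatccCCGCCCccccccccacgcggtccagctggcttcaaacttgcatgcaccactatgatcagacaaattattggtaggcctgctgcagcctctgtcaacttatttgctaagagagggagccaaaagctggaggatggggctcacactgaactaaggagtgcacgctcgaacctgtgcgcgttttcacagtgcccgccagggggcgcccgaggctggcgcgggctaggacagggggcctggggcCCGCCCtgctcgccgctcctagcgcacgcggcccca
Cav1: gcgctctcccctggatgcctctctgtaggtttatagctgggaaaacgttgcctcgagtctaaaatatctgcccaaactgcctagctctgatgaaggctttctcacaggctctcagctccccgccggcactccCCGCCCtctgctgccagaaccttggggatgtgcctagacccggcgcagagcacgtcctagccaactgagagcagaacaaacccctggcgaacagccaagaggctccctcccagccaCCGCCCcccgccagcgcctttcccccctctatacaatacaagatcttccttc
Ptrf: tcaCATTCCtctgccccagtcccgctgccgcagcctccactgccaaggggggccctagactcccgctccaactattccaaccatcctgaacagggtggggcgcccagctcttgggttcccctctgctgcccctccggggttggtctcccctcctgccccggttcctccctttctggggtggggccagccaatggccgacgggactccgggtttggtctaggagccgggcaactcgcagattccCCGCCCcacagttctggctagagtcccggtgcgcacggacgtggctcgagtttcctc
The Ehd2 and Cav1 windows printed each held 2 GC boxes, and the Ptrf window held 1 GC box and 1 TEAD element. A second Cav1 window, chr6:17307390-17307689, held no match to any of the motifs searched. Among 32851 promoter windows of this length, 35.7% held a GC box and 14.7% a TEAD element. The AP-1 element TGANTCA, in 7.81% of windows, was absent from these 3 and matched in the Cav2 window and in 1 of the Pacsin2 windows. The CArG box, searched by name on both strands and held by 1.63% of windows, matched in none of the 10 windows of the members. A match is a description of letters and says nothing here about binding.

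Cav1 encodes the caveolin without which most cells form no caveolae, and lies at chr6:17306335-17341452 on mm10. On 2D collagen its normalized counts were 2560, 2168, 1666 and 2400 in replicates 1 to 4. On 3D collagen they were 1702, 1731, 1519 and 1735. All libraries on 2D collagen except replicate 3 were above every library on 3D collagen, and replicate 3 was within the 3D range, so the groups overlapped. The mean was 2198 ± 389 (SD, n = 4) on 2D and 1672 ± 103 (SD, n = 4) on 3D collagen. Cav1 thus had a log2 fold change of -0.38 (SE 0.16, 95% interval -0.74 to -0.02), with an adjusted p of 0.186 by limma. With library size as the only scaling it was -0.21 (adjusted p of 0.504 by limma), and with the GC trend removed it was -0.61 (0.0982).

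Cav2, the partner that joins Cav1 in hetero-oligomers, lies 17219 bases upstream of Cav1 on the same strand (chr6:17281185-17289115). It was much less abundant, with normalized counts of 306, 58.5, 168 and 234 on 2D collagen and 176, 263, 185 and 229 on 3D collagen. The 2D libraries enclosed the 3D range, with 2D replicate 2 the lowest and 2D replicate 1 the highest of all 8. The means were 192 ± 105 (SD, n = 4) and 213 ± 40.5 (SD, n = 4), and the log2 fold change of 0.36 (SE 0.46, 95% interval -0.68 to 1.41) had an adjusted p of 0.675 by limma. Its sign rested on 1 library: without 2D replicate 2 the log2 fold change was -0.12 by the same fit. It was also -0.03 after the trend with GC content was removed, and the Cav2 transcript had the lowest GC content of the 7, at 37.5%. Of the neighbours on chromosome 6, Cav1 had an interval below 0 and Cav2 one that spans it, and their difference is tested as a ratio further on.

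Among the cavins, Ptrf encodes the coat protein that caveola formation requires (chr11:100956733-100970887). Its normalized counts were 15358, 18110, 17582 and 17664 on 2D collagen. On 3D collagen they were 13798, 15242, 14989 and 18634. All libraries on 3D collagen except replicate 4 were below every library on 2D collagen, and replicate 4 was the highest of all 8, so the groups overlapped through 1 library. Its log2 fold change of -0.14 (SE 0.15, 95% interval -0.48 to 0.20) had an adjusted p of 0.614 by limma, and its sign turned under library-size scaling (0.03) and after removal of the GC trend (0.08).

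Sdpr encodes a cavin that shapes the membrane and occurs in some tissues more than in others (chr1:51289126-51302960). Its normalized counts on 2D collagen were 354, 118, 150 and 268, a wide spread for 4 libraries of 1 line. On 3D collagen they were 328, 332, 313 and 281. The 3D libraries lay close together, above 3 of the 4 libraries on 2D collagen and below 2D replicate 1. The means were 223 ± 109 (SD, n = 4) and 313 ± 23.3 (SD, n = 4). Its log2 fold change of 0.62 was the largest increase in the family but its error was large too (SE 0.33, 95% interval -0.13 to 1.37), with an adjusted p of 0.292 by limma. Without 2D replicate 2 it was 0.36.

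Prkcdbp encodes a cavin first described as a binding partner of protein kinase C delta (chr7:105480083-105482300, minus strand). Its normalized counts were 522, 547, 505 and 342 on 2D collagen and 548, 468, 491 and 453 on 3D collagen. Apart from the low 2D replicate 4, the 8 libraries fell into 1 band. Prkcdbp had a log2 fold change of 0.05 (SE 0.19, 95% interval -0.37 to 0.47), with an adjusted p of 0.894 by limma. It was -0.10 without 2D replicate 4. An antisense gene model covers 22.5% of its exonic bases, and without a known strand setting reads of the pair cannot be told apart.

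**Figure D1:**
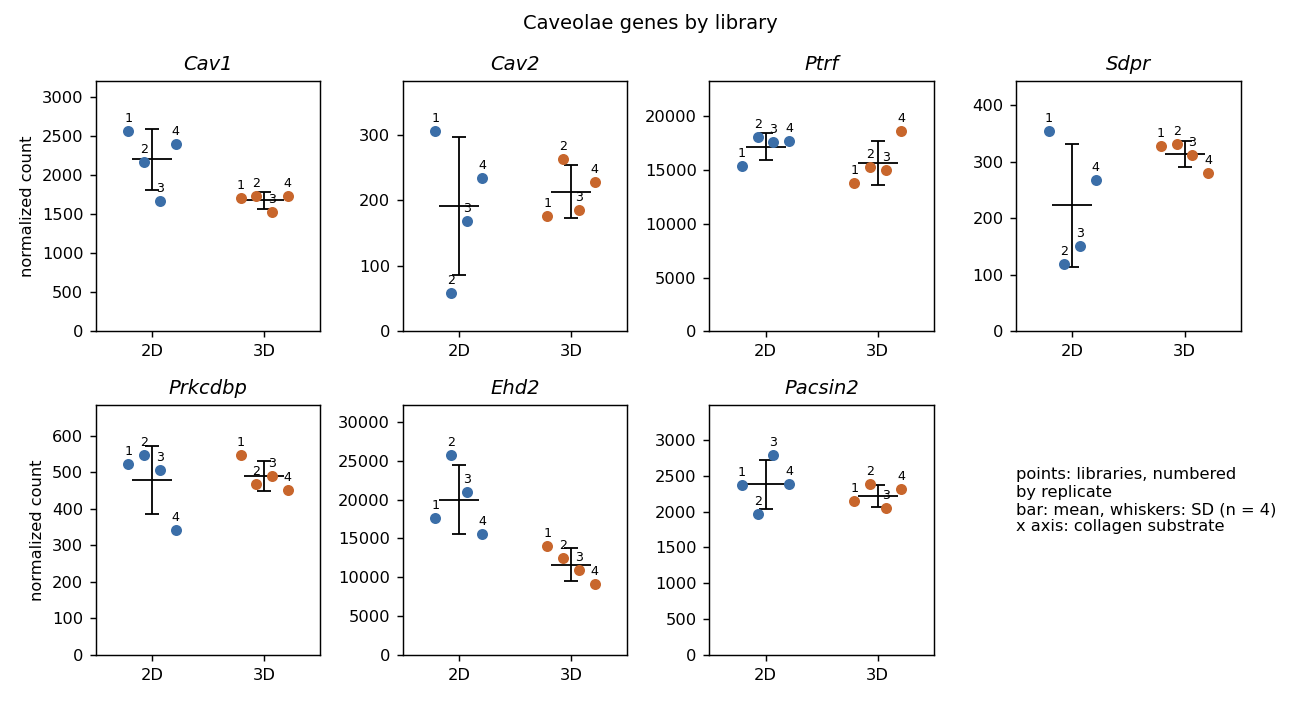
Normalized counts (y axis, linear, from 0) of the 7 caveolae genes in each library on 2D and 3D collagen (x axis); points are libraries numbered by replicate, the bar is the mean and the whiskers are the SD (n = 4). The groups of Ehd2 do not overlap, whereas those of the other 6 genes do.

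Ehd2, the ATPase of the caveola neck, lies at chr7:15946958-15967567 on the minus strand, with the promoter printed above. On 2D collagen its normalized counts were 17589, 25770, 21022 and 15612. On 3D collagen they were 13971, 12500, 10909 and 9088. Every library on 3D collagen was lower than every library on 2D collagen. The mean was 19998 ± 4450 (SD, n = 4) on 2D and 11617 ± 2099 (SD, n = 4) on 3D collagen. For Ehd2 the log2 fold change was -0.78 (SE 0.21, 95% interval -1.24 to -0.31), with an unadjusted p of 0.00396 and an adjusted p of 0.0584 by limma.

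With between 9938 and 26580 reads per library, the count of Ehd2 was not limited by depth. Its coefficient of variation between libraries was 22.3% on 2D and 18.1% on 3D collagen, where counting alone would give 0.712% and 0.910%. Which test was used decided its call. edgeR on the recovered reads gave an adjusted p of 0.0630, where it called 3.18% of the genes lower. DESeq2 gave 0.00744 and called 7.37% lower, limma with library-size scaling gave 0.0392 and called 2.69% lower, and limma after removal of the GC trend gave 0.0246 and called 5.17% lower. With a block for replicate number, limma gave 0.0259 and called 742 genes lower, and edgeR gave 0.0375 and called 605 lower. The log2 fold change of Ehd2 itself stayed between -0.89 and -0.60 over the 21 alternatives tried.

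Pacsin2, the F-BAR protein that bends membrane at caveolae and also serves in endocytosis, lies at chr15:83375607-83464606 on the minus strand. Its normalized counts were 2373, 1967, 2793 and 2379 on 2D collagen and 2154, 2384, 2043 and 2310 on 3D collagen. The 2D libraries held both the lowest and the highest value, and the 3D libraries fell between them. For Pacsin2 the log2 fold change was -0.09 (SE 0.14, 95% interval -0.41 to 0.24), with an adjusted p of 0.753 by limma. Under library-size scaling it was 0.08, and after removal of the GC trend it was 0.00. The interval of Pacsin2 left out the log2 fold change of -0.78 measured for Ehd2 but overlapped the interval of Ehd2 (-1.24 to -0.31).

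Across the family, 4 log2 fold changes were below 0 and 3 above, with a median of -0.09 beside 0.02 for all tested genes. The 2 genes with an unadjusted p under 0.05 were Ehd2 and Cav1. Groups without overlap were found for 1 of the 7, Ehd2. Both counts lie near the shares over all genes. TMM scaling shifted the median log2 fold change of all genes by 0.04 and library-size scaling by 0.17, which is larger than the values of Ptrf, Pacsin2 and Prkcdbp. For those 3 genes no direction is stated for that reason.

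**Figure D2:**
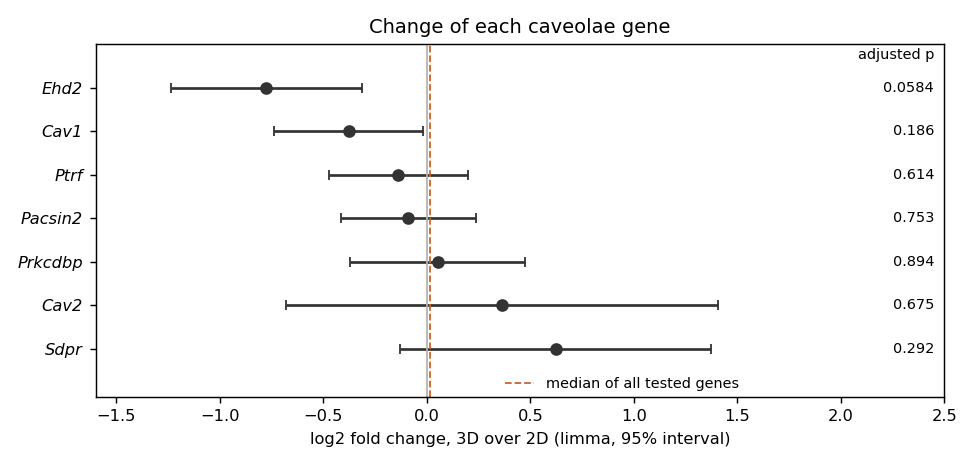
Log2 fold change of each caveolae gene, 3D over 2D collagen (x axis), with its 95% interval from limma, and the adjusted p at the right; the dashed line is the median of all tested genes, 0.02. Only the intervals of Ehd2 and Cav1 leave out 0, and those of Cav2 and Sdpr are the widest.

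To compare genes with each other, recovered reads were divided by exon length in kilobases and scaled to library depth (RPKM). In this measure of level, Ptrf averaged 237 over the 8 libraries, Ehd2 156, Cav1 29.0, Pacsin2 24.3, Prkcdbp 15.0, Sdpr 4.64 and Cav2 3.21. Only 1.36% of the tested genes had a higher level than Ptrf and 2.58% a higher level than Ehd2, while 61.4% were above Cav2. Per length, the transcripts of Ptrf and Ehd2 were thus the most abundant of the family by a wide margin, and those of Cav2 and Sdpr the least.

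Some neighbours in this order were not separated by their spread. Cav1 (31.3 ± 7.27 on 2D and 26.7 ± 2.43 RPKM on 3D collagen, SD, n = 4) and Pacsin2 (23.8 ± 4.72 and 24.9 ± 2.67 RPKM) overlapped on both substrates, although Cav1 was the higher in 7 of the 8 libraries. Sdpr (3.66 ± 2.01 and 5.62 ± 0.221 RPKM) and Cav2 (2.90 ± 1.72 and 3.52 ± 0.768 RPKM) overlapped on 2D but not on 3D collagen, with Sdpr the higher in 7 of the 8 libraries. In both pairs 2D replicate 3 was the exception. Ptrf exceeded Ehd2 in each of the 8 libraries, by the least in 2D replicate 2 (213.4 against 212.8 RPKM) and by the most in 3D replicate 4 (308 against 105 RPKM).

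Ptrf and Ehd2 together made up most of the caveolae transcripts. Of the summed RPKM of the 7 genes, Ptrf made up 46.9% ± 3.42 on 2D and 54.3% ± 5.86 on 3D collagen (SD, n = 4). Ehd2 made up 37.8% ± 4.94 and 28.3% ± 5.39, and Cav1 6.32% ± 1.52 and 6.04% ± 0.183. The shares of both Ptrf and Ehd2 overlapped between the groups: Ehd2 ranged from 32.0% to 43.8% on 2D and from 21.2% to 34.1% on 3D collagen. The sum itself was 496 ± 10.9 RPKM on 2D and 442 ± 40.4 RPKM on 3D collagen. Summed cavins were 7.66 ± 1.83 times the summed caveolins on 2D and 8.69 ± 0.925 times on 3D collagen, within the spread between libraries. These sums and shares were not tested.

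**Figure D3:**
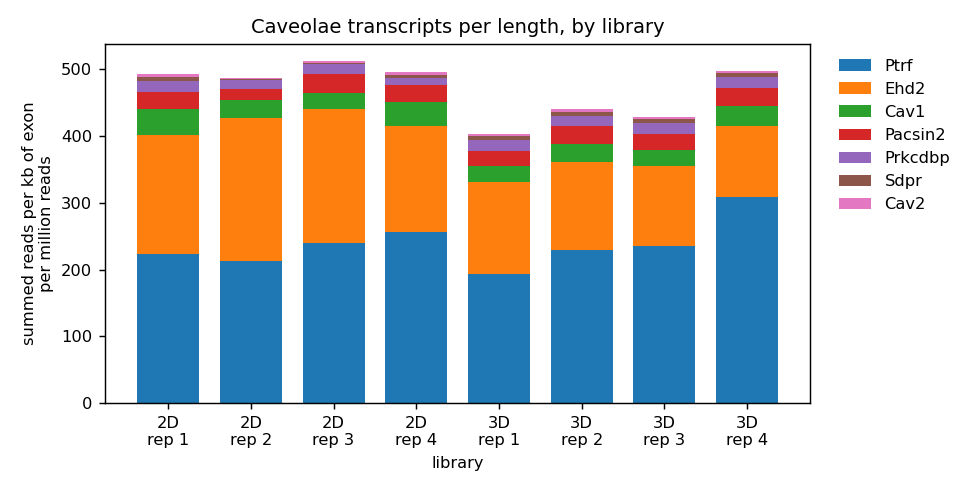
Summed level of the 7 caveolae genes in each library (x axis) as stacked bars of RPKM (y axis, from 0). Ptrf and Ehd2 fill most of every bar, and the Ehd2 segment is shorter in the 4 libraries on 3D collagen.

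A ratio of a pair of genes within a library does not depend on how the library was scaled. The other 6 genes were each set against Cav1, and the log2 ratios were compared by an exact two-sided permutation test (70 arrangements), which cannot give a p below 0.0286. The ratio of Sdpr to Cav1 was 0.139, 0.0550, 0.0907 and 0.112 on 2D collagen. On 3D collagen it was 0.193, 0.192, 0.206 and 0.162. Every library on 3D collagen was above every one on 2D collagen. The mean log2 ratio differed by 1.00 between the substrates (exact permutation p = 0.0286, adjusted over the 6 ratios 0.171). This was the lowest p the test can give, and 1 ratio alone at that p cannot pass 0.05 after the adjustment. The adjusted value therefore does not decide whether Sdpr changed against Cav1. Without 2D replicate 2 the difference was 0.74 for Sdpr, and for Cav2 it was 0.26. The exact test gave unadjusted p-values of 0.0571 for Cav2 (difference 0.74 with all libraries), 0.114 for Prkcdbp (0.43), 0.143 for Pacsin2 (0.29) and 0.286 for both Ptrf (0.24) and Ehd2 (-0.40). The adjusted p-values of the exact tests ran from 0.171 to 0.286. The groups of Ehd2 to Cav1 overlapped, at 6.50 to 12.6 on 2D and 5.24 to 8.20 on 3D collagen.

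Ratios of Ehd2 to the other members were looked at after its values were seen and are given as a description. Ehd2 to Prkcdbp was 33.6, 47.0, 41.5 and 45.5 on 2D collagen and 25.4, 26.7, 22.2 and 20.03 on 3D collagen. Ehd2 to Pacsin2 was 7.41, 13.1, 7.53 and 6.56 on 2D collagen and 6.48, 5.24, 5.34 and 3.93 on 3D collagen. In both the groups did not overlap, by a narrow margin for Pacsin2. Ehd2 to Ptrf was 1.15, 1.42, 1.20 and 0.884 on 2D collagen and 1.01, 0.820, 0.728 and 0.488 on 3D collagen, and here the groups overlapped. Ehd2 to Sdpr, at 49.5 to 216 on 2D and 32.3 to 42.4 on 3D collagen, did not overlap. Ehd2 to Cav2, at 57.4 to 433 and 39.6 to 79.1, did.

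Library-to-library spread differed widely among the members. On 2D collagen the coefficient of variation was 54.9% for Cav2 and 48.9% for Sdpr, where counting alone would give 7.23% and 6.77%. On 3D collagen it was 19.0% for Cav2 and 7.44% for Sdpr. Sdpr on 3D collagen thus varied little more than its counting error of 5.52%. Cav1 had 17.7% on 2D and 6.17% on 3D collagen, while Ptrf went the other way, with 7.19% and 13.3%. Differences in spread were not tested.

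In normalized counts, the 2D library with the lowest Cav2 and Sdpr, replicate 2, also had the highest Ehd2 and Ptrf of its group. In RPKM its Ehd2 was still the highest, but its Ptrf was the lowest of the group (213 against 223 to 256 RPKM). Its Cav2 rested on 49 reads and its Sdpr on 99, against 191 to 314 and 190 to 364 in the other 2D libraries. The transcripts of Cav2 and Sdpr are poor in G and C (37.5% and 44.4%), and those of Ehd2 and Ptrf are richer (54.5% and 57.3%). GC content did not sort all 7 genes in normalized counts. Cav1, at 42.6%, was at the mean of its group in that library, and Pacsin2, at 52.7%, was the lowest of its group there. The part of GC content in the values of this library was not tested. Without it the log2 fold change of Ehd2 was -0.65 and its adjusted p 0.0887 by limma.

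Genes that neighbour caveolae in function were read from the same fit. Of 63 genes in 6 lists, 54 were tested, none was called higher and 4 were called lower on 3D collagen, where limma called 2.33% of all genes higher and 3.39% lower, and their median log2 fold change was -0.08. edgeR called 0 higher and 4 lower (2.72% and 3.18% of all genes), and DESeq2 called 1 and 7 (5.99% and 7.37%). Those 4 were Flna, Abl1, Trpv4 and Egfr, and all had groups without overlap. Across the lists 13 of the 54 had groups that did not overlap and 15 an unadjusted p under 0.05, shares of genes to be read against 18.4% and 24.2% of all tested genes.

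Paralogs of the members included 4 tested genes, none of them called, with a median of -0.26. Ehd1, an endocytic recycling ATPase and the most abundant of them, had normalized counts of 8126, 17345, 8642 and 9430 on 2D collagen and 7453, 7170, 5777 and 5257 on 3D collagen. Its groups did not overlap, but its log2 fold change of -0.71 (SE 0.25) had an adjusted p of 0.132 by limma, and without the high 2D replicate 2 it was -0.46. Ehd4, named after its values were seen, was steady on 2D collagen at 2610, 2629, 2596 and 2531. On 3D collagen it was 2062, 2048, 1628 and 1693, all lower, and its adjusted p of 0.0631 by limma (log2 fold change -0.49, SE 0.13) missed the threshold as that of Ehd2 did. Ehd3 was near the filter at 4.78 to 41.2 normalized counts (log2 fold change 0.76, SE 0.55). The muscle caveolin Cav3 stayed at or under 1.87 normalized counts and the muscle cavin Murc at or under 8.70, so neither was tested.

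Flotillins scaffold membrane domains that do not contain caveolin, and their list also holds stomatins and other raft scaffolds. It gave no call in 5 tested genes of 7 (Flot1, Flot2, Stom, Stoml1 and Mal), with a median of -0.23. Flot2 had 3745, 6681, 3973 and 4063 normalized counts on 2D collagen and 3571, 2771, 2663 and 2208 on 3D collagen. The groups did not overlap, and the log2 fold change of -0.70 (SE 0.22) had an adjusted p of 0.0972 by limma. Without the high 2D replicate 2 it was -0.51.

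Among 14 dynamins, actin regulators, kinases, GTPases and their partners that act on caveolae, Flna and Abl1 fell and none rose, with a median of -0.10. Flna encodes filamin A, the actin crosslinker that ties caveolae to stress fibres. Its normalized counts were 181912, 255948, 196356 and 176943 on 2D collagen and 85989, 108578, 74115 and 67725 on 3D collagen. Every library on 3D collagen was far below every one on 2D collagen, for a log2 fold change of -1.28 (SE 0.21) and an adjusted p of 0.0115 by limma. Without 3D replicate 3 the adjusted p was 0.0549.

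Abl1 encodes a tyrosine kinase reported to organise caveolae along stress fibres. Its normalized counts were 3076, 4440, 3843 and 3529 on 2D collagen and 2111, 2188, 1928 and 1955 on 3D collagen. The groups stood well apart, with a log2 fold change of -0.85 (SE 0.15) and an adjusted p of 0.0154 by limma, which was 0.0506 without 3D replicate 1 and 0.0670 without 3D replicate 3. Dnm2, the dynamin that cuts caveolae off the membrane, was chosen for mention after its values were seen and had a log2 fold change of -0.11 (adjusted p of 0.775 by limma).

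The clathrin coat, the other main route of uptake, gave no call in 17 tested genes, with a median of 0.05. Clta, a clathrin light chain, had 7358, 9810, 7594 and 6492 normalized counts on 2D collagen and 9612, 8543, 8997 and 6583 on 3D collagen, fully overlapping, with a log2 fold change of 0.11 (SE 0.18) and an adjusted p of 0.752 by limma. The heavy chain Cltc, named after its values were seen, went up in the means from 4569 ± 1524 to 9065 ± 1716 (SD, n = 4) without overlap of the groups. Its lowest value was 2541 in 2D replicate 2, and no fit of Cltc without that library is given. Its adjusted p of 0.0569 by limma lay beside that of Ehd2 in the other direction. Cltb, the other light chain, had a log2 fold change of -0.46 (adjusted p of 0.126 by limma).

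Of 6 tested channels and cortex linkers that sense or carry membrane tension, Trpv4 fell and none rose, with a median of 0.10. The list held 8 genes, but Piezo1 and Piezo2 were not found under those symbols. The calcium channel Trpv4 had 20840, 31495, 22660 and 16835 normalized counts on 2D collagen and 12309, 11010, 10556 and 10011 on 3D collagen. All 3D libraries were lower, and the log2 fold change was -1.03 (SE 0.20) with an adjusted p of 0.0219 by limma. The call was lost when 2D replicate 3 (0.0532) or 3D replicate 1 (0.0555), 2 (0.0725) or 3 (0.0845) was left out. The linkers Ezr and Msn had log2 fold changes of -0.09 and 0.03.

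Of 8 tested receptors and enzymes reported in caveolae, Egfr fell and none rose, with a median of -0.25. Egfr, the receptor for the EGF that the medium lacked in both groups, had 2133, 2270, 2288 and 1716 normalized counts on 2D collagen. On 3D collagen it had 1075, 881, 818 and 850. The log2 fold change was -1.21 (SE 0.15) with an adjusted p of 0.00438 by limma, and the call held whichever library was left out. Insr, mentioned after its values were seen, had a log2 fold change of 0.79 (SE 0.29, adjusted p of 0.141 by limma).

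**Figure D4:**
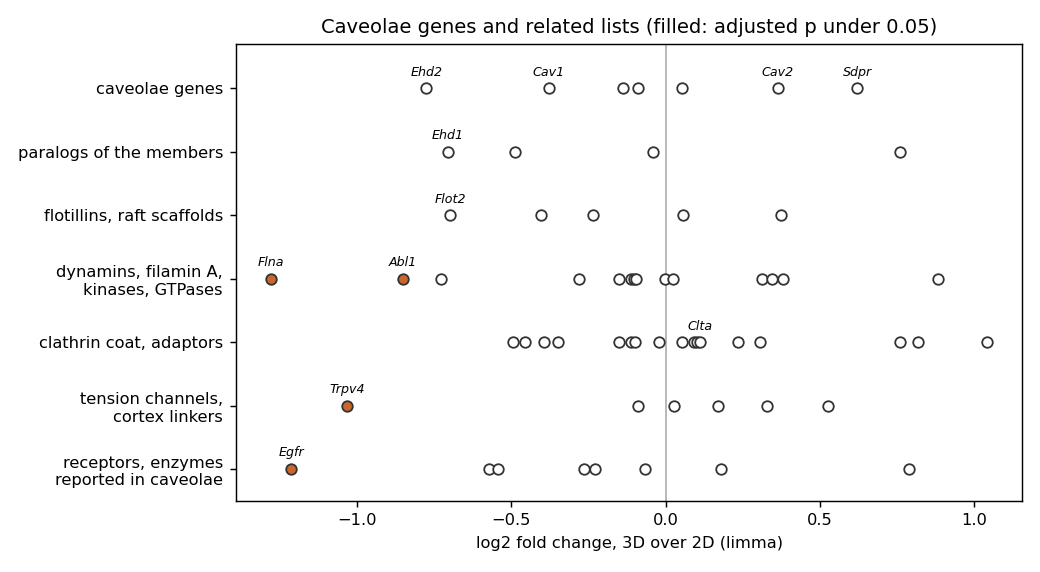
Log2 fold change, 3D over 2D collagen (x axis), of each tested caveolae gene and of the tested genes in 6 related lists (y axis); filled points have a limma adjusted p under 0.05. The 4 filled points, Flna, Abl1, Trpv4 and Egfr, are all below 0, and no caveolae gene is filled.

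The genes whose library-by-library pattern lay nearest to that of Cav1 were found from the root mean square distance of gene-centred log2 values over the 8 libraries. They were Pafah1b2 (distance 0.0715), Dclre1b (0.0734), Dcun1d2 (0.0960), Seh1l (0.113) and Mtmr2 (0.113), against a median distance of 0.462 for all tested genes. The members and gene models without a descriptive symbol were left out of this search, and the distances of the members were taken apart from it. Ptrf was at 0.264, Pacsin2 at 0.297, Prkcdbp at 0.372 and Ehd2 at 0.405, nearer than the median gene, while Sdpr at 0.617 and Cav2 at 0.721 were farther.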

How the data were processed

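RNA from 8 libraries was sequenced. Extraction used TRIzol and a Qiagen kit before Illumina library preparation, per the labels' protocols. HTSeq 0.6.1p1, DESeq2 and mm10 were used, per the submitters' processing notes. Aligner, annotation and strand setting: not given in the sources used here. For each gene symbol the authors deposited a normalized signal. In every library 100% of them were whole multiples of 1 read within 0.001 reads, and the divisors matched size factors of the median-of-ratios type to within 3.4e-09, so the deposited signal is a read count divided by 1 factor per library.

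Groups were compared with limma 3.58.1 (R 4.3.3; trended, robust prior variance, no covariate) on log2(normalized count + 1), a scale that understates the change of low genes. Genes needed 10 or more normalized counts in 4 or more libraries. Benjamini-Hochberg adjustment covered all 11820 tested genes, with a threshold of 0.05. The computation was tested on simulated data. edgeR 4.0.16 on the recovered reads called 697 genes. DESeq2 1.42.0, other scalings, pseudocounts, filters, a replicate block, removal of GC trends (lowess, span 30%, 11712 genes) and leaving out each library were the other alternatives, and leaving out both libraries numbered 4 was added after seeing the data. GENCODE M21 gave positions, exon lengths and GC content (22857 of 23337 symbols matched, 1904 through older symbols).

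The members and lists were chosen with earlier results of these data known. Named genes are the 7 members, up to 4 called genes per related list by adjusted p (or its gene most abundant per exon length where none was called), and the 5 genes nearest to Cav1. Other genes are marked as named after their values were seen.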

Additional observations from a re-analysis of the deposited data

Results flagged for a closer look

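Among 40 sets of 4 libraries checked (the genes and ratios named, on each substrate), 5 held a library whose distance to its nearest neighbour exceeded Dixon's 95% limit for 4 values. Chance alone gives about 1 such set in 20. Cav1 in 3D replicate 3 was the lowest of its group at 1519 normalized counts, with the next at 1702 and the highest at 1735. Ehd1 was highest in 2D replicate 2 at 17345 normalized counts, with the next at 9430 and the lowest at 8126. Flot2 was highest in the same library at 6681, with the next at 4063 and the lowest at 3745. The log2 ratio of Cav2 to Cav1 was lowest there too, at -5.19, with the next at -3.35 and the highest at -3.06. The log2 ratio of Pacsin2 to Cav1 was highest in 2D replicate 3 at 0.74, with the next at -0.01 and the lowest at -0.14.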

How the results depend on the processing

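Over 21 alternatives per gene, Sdpr kept its direction and its side of the threshold in each, and Cav1 and Ehd2 kept their direction in each. The adjusted p of Ehd2 passed in 6: DESeq2 (0.00744), library-size scaling (0.0392), removal of the GC trend (0.0246), the replicate block in limma (0.0259) or edgeR (0.0375), and the GC trend with the replicate block (0.0110). With 1 library left out it was 0.0556 to 0.176. The number of caveolae genes called lower was thus 1 with DESeq2 (7.37% of all genes lower), library-size scaling (2.69%) and the GC trend removed (5.17%). It was also 1 with the replicate block, where limma called 742 and edgeR 605 of all genes lower. With the GC trend removed and the replicate block it was 2, as Cav1 joined (log2 fold change -0.61, adjusted p 0.0364 by limma). That fit called 1078 of 11712 genes lower, against 401 of 11820 in the main fit. The replicate numbers were not treated as pairs in the main fit. Same-numbered libraries correlated at -0.17, 0.37, 0.25 and 0.81 in their deviations from the group means, where pairing asked for over 0.1 in every pair. Of the 8 libraries, 5 correlated best with their own number, so pairing was neither shown nor excluded.

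The log2 fold change of Cav2 was -0.0332 with the GC trend removed, with or without the replicate block, and -0.12 to 0.66 with 1 library left out. That of Ptrf was 0.0345 with library size and 0.0756 with the GC trend removed, with or without the block. That of Pacsin2 was 0.0845 and 0.00212 under the same settings. That of Prkcdbp was -0.0656 without both libraries numbered 4, and -0.10 to 0.12 with 1 library left out. The cause of these turns was not tested.

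Genes called higher, 275 with limma, numbered 708 with DESeq2, 498 with library size, 482 with the GC trend removed, 163 without both libraries numbered 4, and 42 to 267 with 1 library left out. With the replicate block they were 663 (limma), 681 (edgeR) and 997 (GC trend removed). Genes called lower, 401, numbered 871 with DESeq2, 318 with library size, 605 with the GC trend removed, 265 without both libraries numbered 4, and 105 to 360 with 1 library left out. With the replicate block they were 742 (limma), 605 (edgeR) and 1078 (GC trend removed). Genes of the related lists called lower, 4, were 7 with DESeq2 and with the GC trend removed, 10 with the GC trend removed and the replicate block, and 1 to 4 with 1 library left out. Called higher, 0, they were 1 in those 3 fits and 0 to 1 with 1 library left out. Cav2 and Sdpr had the fewest reads of the members, with 49 and 99 in their lowest library. Their spread on 2D collagen (54.9% and 48.9%) was nevertheless far above counting error (7.23% and 6.77%).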

Other observations

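The pattern of Ehd2 was compared with that of all tested genes by the measure used for Cav1, a step added after its values were seen. With the same genes left out of the search, the 3 nearest were Nisch (distance 0.0654), Caskin2 (0.0691) and Rgp1 (0.0727). The median was 0.592 for all tested genes. Nisch, an integrin-binding protein, had normalized counts of 21742 ± 5260 (SD, n = 4) on 2D and 12827 ± 2882 on 3D collagen, with an adjusted p of 0.0846 by limma. Caskin2 passed limma's test with an adjusted p of 0.0495 (log2 fold change -0.81, SE 0.20). A fold change close to that of Ehd2 follows from the choice of these genes by distance and is no separate result. The caveolae genes were farther from Ehd2, from Cav1 at 0.405 to Cav2 at 1.03.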
